A study of Homo sapiens with 30 samples.

Results

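This account follows 10 genes of the insulin-like growth factor (IGF) and insulin system in T47D cells, a human breast cancer cell line of luminal type that responds to progestins. They are 5 IGF binding protein genes (IGFBP2, IGFBP3, IGFBP4, IGFBP5 and IGFBP6), 3 receptor genes (IGF1R, IGF2R and INSR) and 2 adaptor genes (IRS1 and IRS2). They were chosen by name, with earlier results of these data known, from the 60554 genes in each count file, and all 10 passed the filter on low counts. The series holds 30 samples, 12 of them from RNA-seq in 6 groups of 2, which are analysed here. The other 18, from ChIP, were not.

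All 12 libraries came from the same cell line at passages 18 to 20, and all cells were kept without serum for 24 h. The ICRF groups are ICRF with progestin and ICRF untreated, and the siRNA groups are siCEBPA with progestin, siCEBPA untreated, siControl with progestin and siControl untreated. Progestin here is R5020, a synthetic agonist of the progesterone receptor, at 10 nM. The siRNA libraries had an arrest of 4 h, carry the time label T360 with progestin and T0 untreated, and no unit stands beside that label. No untreated T360 library was used, so the hormone and the time label cannot be told apart. The siCEBPA cells received siRNA against CEBPA, which encodes the transcription factor C/EBP alpha, and the siControl cells a control siRNA. ICRF is not spelled out in the labels. The name usually denotes inhibitors of topoisomerase II, and the design text speaks of Topo2a inhibition. The ICRF titles name no siRNA, arrest or time, so any difference in these cannot be told apart from ICRF when its groups are set against siControl.

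IGF-I and IGF-II are growth factors that signal through IGF1R, a tyrosine kinase receptor closely related to the insulin receptor INSR. Both receptors phosphorylate IRS1 and IRS2, which recruit PI3K and so activate AKT, and AKT holds FOXO transcription factors out of the nucleus. IGF2R has no kinase and carries IGF-II to the lysosome. The IGFBPs are secreted proteins that bind IGFs, and in doing so can keep them from IGF1R or hold them near the cell. In breast epithelium this system works together with estrogen and progesterone, and luminal tumour lines are known for high IGF1R and IRS1.

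The 250 bases upstream of the RefSeq transcription start (GRCh38.p14) are shown for 4 of the genes, since they form the pairs on which the results turn. IGFBP4 and IGFBP5 had the most abundant messengers of the binding proteins, and both were lower with progestin. IRS1 and IRS2 encode adaptors of the same kind. With progestin IRS1 was lower and IRS2 higher in all 3 settings, although the IRS2 call in siControl cells was lost in 6 of 11 alternatives. Each sequence is written 5′ to 3′ as the RefSeq promoter table gives it for the gene, with the last base next to the start. Capitals mark GGGCGG (the Sp1 site) and TATAAA (the TATA box), or their reverse complements, and some GGGCGG matches overlap.
IGFBP4: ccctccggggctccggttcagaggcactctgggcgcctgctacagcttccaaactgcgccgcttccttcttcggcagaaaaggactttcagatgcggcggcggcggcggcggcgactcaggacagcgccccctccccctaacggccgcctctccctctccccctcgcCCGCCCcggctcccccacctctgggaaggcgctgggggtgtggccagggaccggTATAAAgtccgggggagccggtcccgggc
IGFBP5: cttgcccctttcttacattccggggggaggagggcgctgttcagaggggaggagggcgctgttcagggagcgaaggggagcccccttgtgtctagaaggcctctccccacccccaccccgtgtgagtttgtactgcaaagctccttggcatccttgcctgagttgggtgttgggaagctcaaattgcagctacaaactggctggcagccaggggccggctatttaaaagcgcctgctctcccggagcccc
IRS1: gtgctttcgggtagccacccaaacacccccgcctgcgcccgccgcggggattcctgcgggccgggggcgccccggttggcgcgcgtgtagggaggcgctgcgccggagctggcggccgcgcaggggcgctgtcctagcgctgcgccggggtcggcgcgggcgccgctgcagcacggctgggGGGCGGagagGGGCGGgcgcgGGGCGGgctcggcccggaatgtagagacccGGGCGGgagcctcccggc
IRS2: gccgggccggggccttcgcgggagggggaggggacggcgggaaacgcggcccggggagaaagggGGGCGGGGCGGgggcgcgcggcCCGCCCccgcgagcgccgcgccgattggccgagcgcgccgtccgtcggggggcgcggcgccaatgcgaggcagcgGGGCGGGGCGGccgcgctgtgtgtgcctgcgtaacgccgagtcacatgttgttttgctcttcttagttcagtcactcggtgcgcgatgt
IGFBP4 (chr17:40443200-40443449, plus strand) held a TATAAA at positions -29 to -24 from the start and a reverse complement of GGGCGG at -83 to -78. IGFBP5 (chr2:216695550-216695799, minus strand) held none of the motifs searched. IRS1 (chr2:226799821-226800070, minus strand) held 4 matches to GGGCGG, and IRS2 (chr13:109786584-109786833, minus strand) held 5. Of 35116 RefSeq promoters of this length, 42.6% held GGGCGG and 10.7% TATAAA on either strand. Among the 10 genes, IGFBP5 alone lacked GGGCGG and IGFBP4 alone held TATAAA, so GGGCGG was not particular to the IRS pair. The search also covered TGTTCT, a short motif bound by steroid receptors, which 12.4% of promoters held and, among the 10 genes, IGFBP2 alone. GTAAACA, a forkhead site, was in 2.98% of promoters and in that of IGFBP6. TTGCNNAA, a C/EBP site, was in 9.05% of promoters and in none of the 10. Only the first RefSeq start listed for each gene was searched, while the shares cover every promoter. That start lay 602 bases from the start of the counted gene for IGFBP3, 432 for IGF1R, 380 for INSR and 231 for IGFBP6. For the other genes it lay at most 61 bases away. The members' windows were 56.8 to 81.2% G or C, against a median of 58.0% over all promoters. IGFBP2 and IGFBP5 are neighbours on chromosome 2 and lie 7668 bases apart on opposite strands in hg38.

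Libraries held between 57364785 and 148624099 counted read pairs, and siControl untreated replicate 2 was the deepest. The labels do not say that replicates came from separate cultures, so p-values measure only how the libraries at hand varied, and part of that may be technical. In bulk RNA, fewer cells of a type and less RNA per cell cannot be told apart. Levels are counts scaled to library size (CPM), and differences are log2 fold changes ± SE from edgeR's quasi-likelihood test, called where the p adjusted by Benjamini-Hochberg over all genes tested was under 0.05. All 11 luminal markers were over 1 CPM in every group, and of 13 markers of fibroblasts, endothelium and blood only COL1A1 and LUM were, with HBB listed at 0 in 5 of the 6 groups. CEBPA itself had 10.7 and 12.1 CPM in siCEBPA untreated cells, against 47.7 and 54.4 CPM in siControl untreated cells. With progestin it had 57.5 and 62.2 CPM in siCEBPA cells, against 207 and 204 CPM in siControl cells, and the change was in the direction of the labels. CEBPA also rose with progestin, by log2 changes of 1.20 ± 0.04 with ICRF, 2.39 ± 0.07 in siCEBPA cells and 1.99 ± 0.06 in siControl cells. Its mean was 59.9 CPM in siCEBPA cells with progestin, near the 51.1 CPM of untreated siControl cells. In ICRF cells it averaged 88.5 CPM with progestin and 38.2 CPM untreated. PGR, the progesterone receptor gene, fell with progestin in all 3 settings, by 1.94 ± 0.03 with ICRF, by 1.15 ± 0.04 in siCEBPA cells and by 1.84 ± 0.04 in siControl cells on the log2 scale. Its fall was smaller in siCEBPA than in siControl cells, by 0.69 ± 0.05 (adjusted p 1.44e-06). For ICRF minus siControl the difference was -0.09 ± 0.05 and was not called (adjusted p 0.123).

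Progestin was associated with lower IGFBP4, IGFBP5 and IRS1 and higher IGFBP3, IGF2R and IRS2 messenger in all 3 settings, although IGF2R in siCEBPA cells turned to -0.01 with upper quartile scaling and -0.05 with no scaling factors. IGF1R was higher with progestin in siCEBPA and siControl cells and lower with progestin in ICRF cells. With ICRF, 4 members were called higher and 4 lower, where 61.4% of 18556 genes tested were called, 31.3% higher and 30.0% lower. In siCEBPA cells 6 members were called higher and 3 lower, where 58.2% of 18351 genes were called, 29.9% higher and 28.4% lower. In siControl cells the counts were again 6 and 3, where 58.5% of genes were called, 29.2% higher and 29.3% lower. Most genes tested were thus called in each setting, and the share of members called is read against that. The members' median log2 change was 0.06 with ICRF, 0.21 in siCEBPA cells and 0.27 in siControl cells, against medians over all genes of -0.01, -0.03 and -0.03 in that order. The siCEBPA and siControl splits moved with the scaling. Of the siCEBPA calls, 51.3% were higher, against 36.9% with upper quartile scaling and 33.3% with no scaling factors, where the median of all genes was -0.16 and -0.19. Of the siControl calls, 50.0% were higher, against 38.2% and 33.9%, where the median was -0.15 and -0.19.

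**Figure D1:**
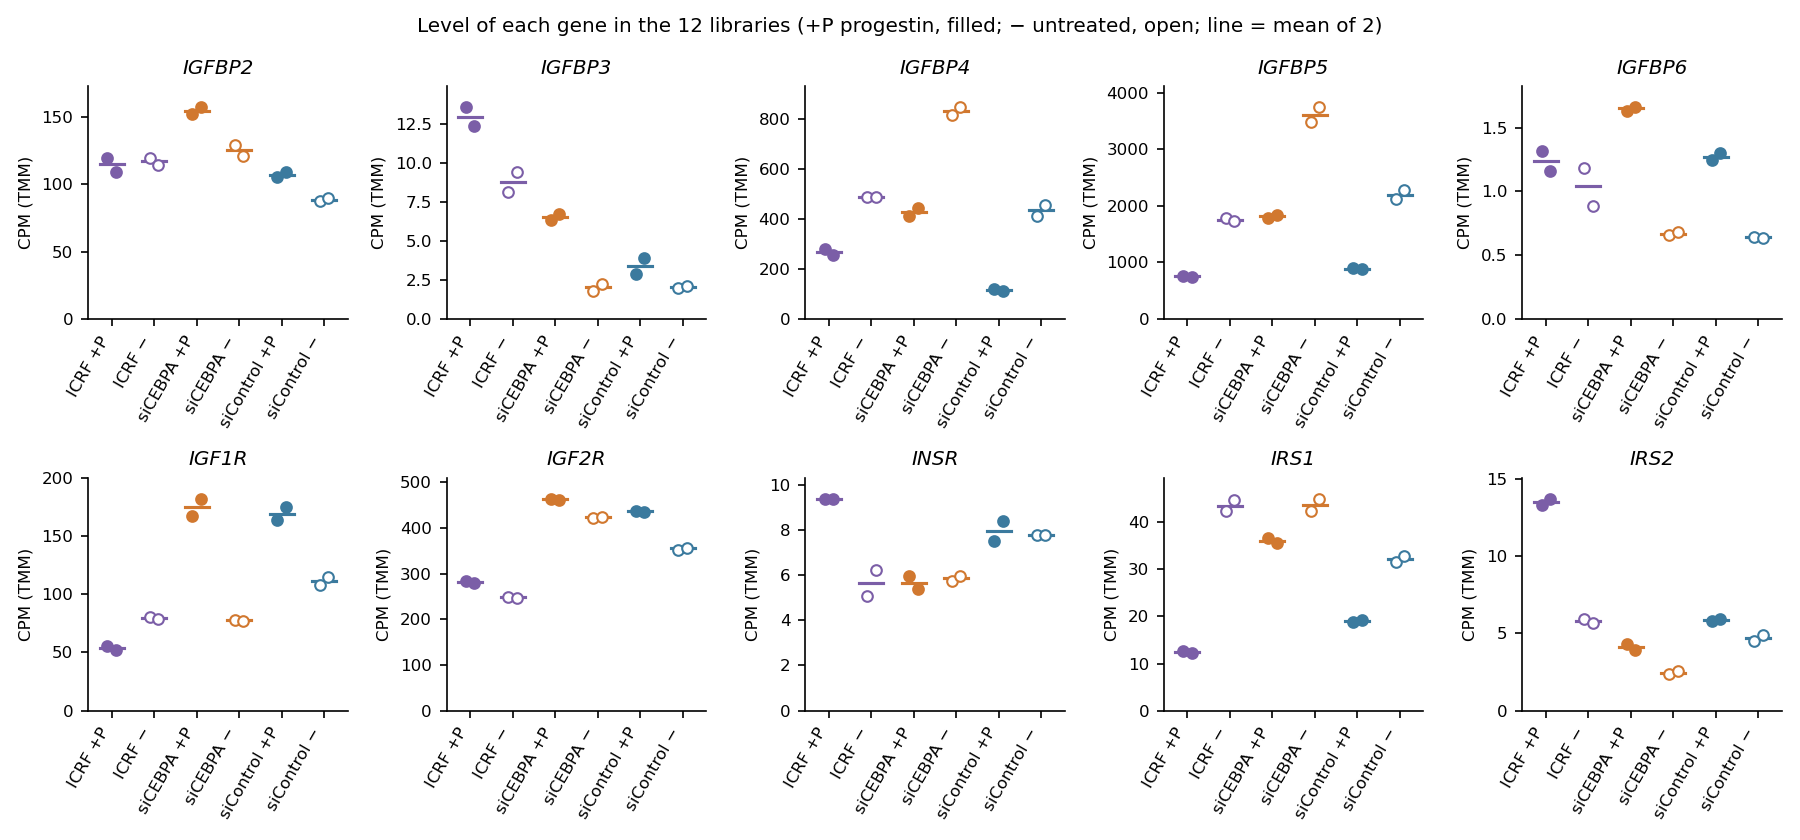
Level of each of the 10 genes in the 12 libraries, in CPM with TMM scaling on a linear axis from 0. Points are libraries, filled with progestin (+P) and open untreated (−), and lines are means of 2. IGFBP4, IGFBP5 and IRS1 lie lower with progestin in all 3 settings, and IGF1R lies lower with progestin in ICRF cells.

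**Figure D2:**
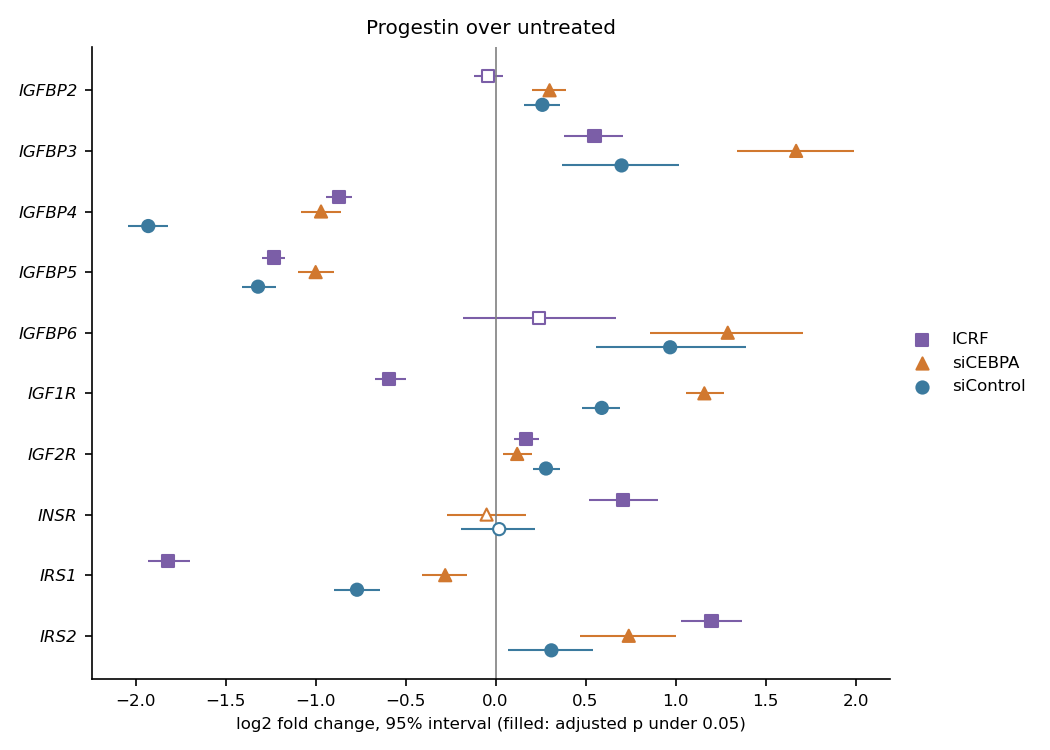
Log2 fold change of progestin over untreated for each gene, with its 95% interval, in ICRF, siCEBPA and siControl cells. Filled symbols passed an adjusted p of 0.05. IGF1R falls on opposite sides of 0, at -0.59 with ICRF, 1.16 in siCEBPA cells and 0.59 in siControl cells.

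IGFBP5, a binding protein that can be held in the extracellular matrix, had the highest messenger level per length of the 10 genes in 5 groups. In ICRF progestin cells it had 117 ± 2.26 CPM per kb and IGFBP4 had 123 ± 7.96 CPM per kb (SD, n = 2 each), and their libraries overlapped. In ICRF cells IGFBP5 had 765 and 745 CPM with progestin, against 1777 and 1732 CPM untreated. In siCEBPA cells IGFBP5 had 1785 and 1846 CPM with progestin, against 3482 and 3742 CPM untreated. In siControl cells IGFBP5 had 897 and 885 CPM with progestin, against 2122 and 2278 CPM untreated. Both progestin libraries lay below both untreated libraries in each setting, with no overlap. From low to high the group means were 755 (ICRF progestin), 891 (siControl progestin), 1755 (ICRF untreated), 1816 (siCEBPA progestin), 2200.2 (siControl untreated) and 3612 CPM (siCEBPA untreated), and no neighbours overlapped. IGFBP5 fell with progestin by 1.23 ± 0.03 with ICRF (adjusted p 4.97e-32), by 1.0 ± 0.04 in siCEBPA cells (adjusted p 1.46e-11) and by 1.32 ± 0.05 in siControl cells (adjusted p 5.18e-13). It was higher in siCEBPA than in siControl cells both with progestin, by 1.04 ± 0.05 (adjusted p 9.81e-11), and untreated, by 0.73 ± 0.04 (adjusted p 3.52e-09). IGFBP5 shares exon positions with an antisense gene that had a mean of 21 counts per library, and counting used strand.

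IGFBP4, which binds IGFs in solution and is known as an inhibitor of their action, was the second most abundant binding protein messenger per length in 5 groups. The length counts all annotated exons, 4767 bases for IGFBP2 and 2200 for IGFBP4, and may exceed that of the main messenger. Plain levels were close in siControl progestin cells, at a mean of 107 CPM for IGFBP2 and 115 CPM for IGFBP4. In ICRF cells IGFBP4 had 282 and 257 CPM with progestin, against 488 and 487 CPM untreated. In siCEBPA cells IGFBP4 had 414 and 443 CPM with progestin, against 817 and 847 CPM untreated. In siControl cells IGFBP4 had 119 and 111 CPM with progestin, against 414 and 455 CPM untreated. Progestin and untreated libraries stood apart in every setting, and siControl progestin libraries were the lowest of all 12. In the order of the 6 group means, the libraries of siCEBPA progestin and siControl untreated overlapped and the other neighbours stood apart. IGFBP4 fell with progestin by 0.87 ± 0.04 with ICRF (adjusted p 1.04e-21), by 0.97 ± 0.05 in siCEBPA cells (adjusted p 2.27e-10) and by 1.93 ± 0.05 in siControl cells (adjusted p 9.32e-14). It was 3.76-fold higher in siCEBPA than in siControl cells with progestin (log2 1.91 ± 0.05, adjusted p 3.11e-12) and 1.93-fold higher untreated (log2 0.95 ± 0.05, adjusted p 1.44e-09). With progestin, siCEBPA cells had a mean of 428 CPM of IGFBP4, and siControl cells without hormone had 435 CPM.

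Summed over IGFBP1 to IGFBP7 per kilobase of gene length, the binding protein messenger was lower with progestin in each setting. In ICRF cells the sum was 277 and 260.2 CPM per kb with progestin, against 527 and 518 untreated. In siCEBPA cells it was 500.0 and 524 CPM per kb with progestin, against 939.9 and 992 untreated. In siControl cells it was 217 and 212 CPM per kb with progestin, against 537 and 580.4 untreated. IGFBP5 made up 43.6% of this sum in ICRF progestin cells, the lowest share, and 64.3% in siControl progestin cells, the highest. IGFBP4 made up 45.6% in ICRF progestin cells and 24.3% in siControl progestin cells, so the balance of the pair differed most between these groups. IGFBP2 held 8.94% ± 0.161 with progestin and 4.69% ± 0.094 untreated in ICRF cells, 6.32% ± 0.0558 and 2.72% ± 0.224 in siCEBPA cells, and 10.4% ± 0.451 and 3.32% ± 0.120 in siControl cells (SD, n = 2 each). These shares are a description, since 2 libraries against 2 cannot reach 0.05 in an exact permutation test. The shares also depend on the gene lengths used. Without division by length, IGFBP5 took 65.3 to 80.7%, IGFBP4 10.3 to 23.3% and IGFBP2 2.74 to 9.91%. The order of groups also changed there. IGFBP5 then had its highest share in siControl untreated cells, with 79.7% in siControl progestin cells, and IGFBP2 in ICRF progestin cells.

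**Figure D3:**
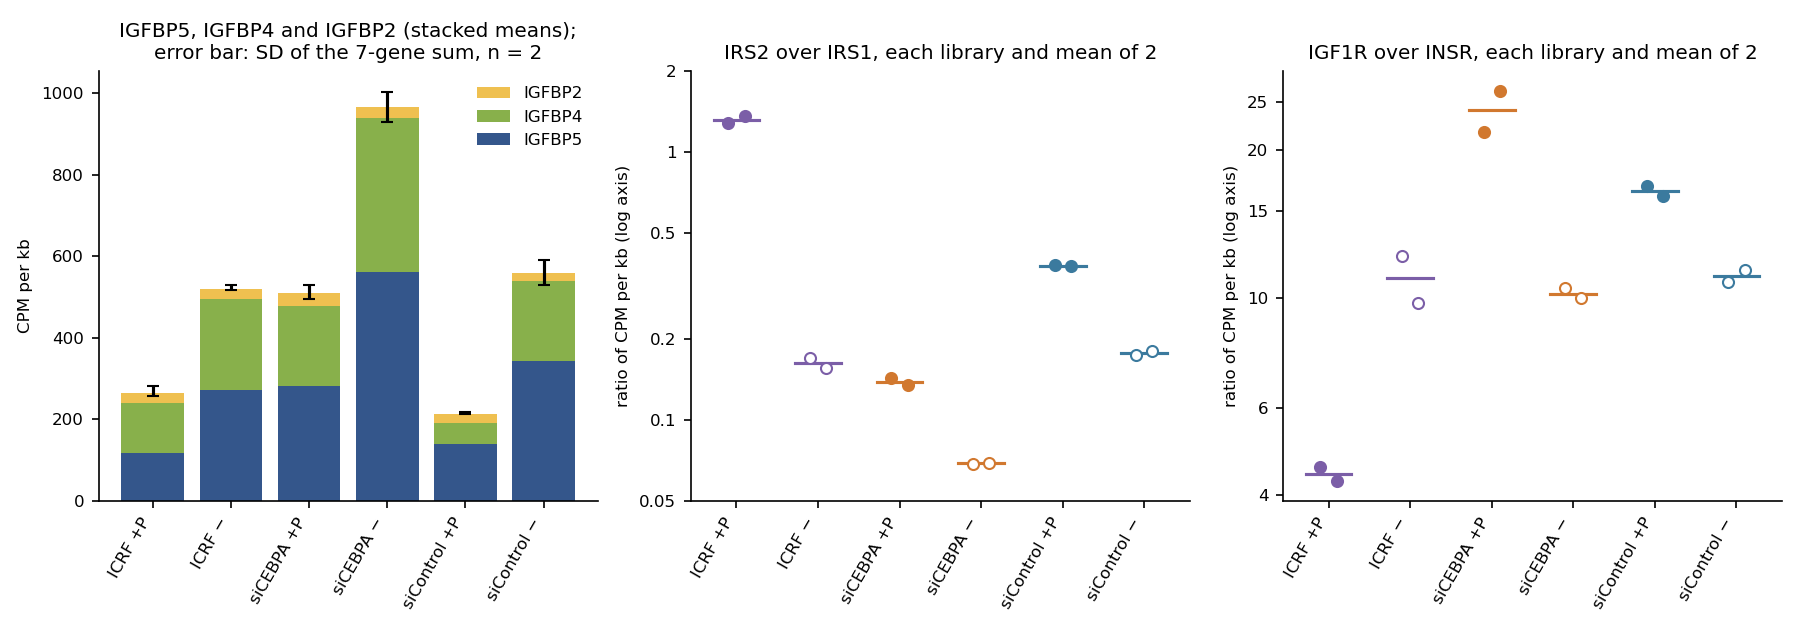
Left, stacked group means of IGFBP5, IGFBP4 and IGFBP2 in CPM per kb, with the SD of the 7-gene IGFBP sum (n = 2). Middle and right, IRS2 over IRS1 and IGF1R over INSR in each library on log axes, with the mean of 2. The IGFBP sum was 269 with progestin and 522 untreated in ICRF cells, and IRS2 over IRS1 passed 1 only in the ICRF progestin libraries.

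IGFBP2, a binding protein with a sequence that can bind integrins, had small hormone differences. It had 119.7 and 109 CPM with progestin and 119 and 114 CPM untreated in ICRF cells, where the groups overlapped. In siCEBPA cells IGFBP2 had 152 and 157 CPM with progestin, against 129 and 121 CPM untreated. In siControl cells IGFBP2 had 105 and 109 CPM with progestin, against 87.2 and 89.6 CPM untreated. The siRNA groups did not overlap, and siCEBPA progestin libraries were the highest of the 12. In the order of all 6 group means, the ICRF groups were the only neighbours that overlapped. IGFBP2 rose with progestin by 0.30 ± 0.05 in siCEBPA cells (adjusted p 3.79e-05) and by 0.26 ± 0.05 in siControl cells (adjusted p 0.000145). With no scaling factors the siControl value was 0.10 and its call was lost (adjusted p 0.0523, and between 5.59e-07 and 0.0523 over 11 alternatives). With ICRF the difference was -0.04 ± 0.04, with a 95% interval of -0.12 to 0.04 (adjusted p 0.394). That value turned to 0.03 without ICRF progestin replicate 2, and without ICRF progestin replicate 1 it was -0.11 and called (adjusted p 0.00994, and between 0.00994 and 0.856 over 11 alternatives). IGFBP2 was higher in siCEBPA than in siControl cells by 0.55 ± 0.05 with progestin (adjusted p 1.07e-07) and by 0.51 ± 0.05 untreated (adjusted p 2.09e-07).

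IGFBP3, the main IGF carrier in blood, and IGFBP6, which prefers IGF-II, were scarce in these cells. In ICRF cells IGFBP3 had 13.6 and 12.4 CPM with progestin, against 8.15 and 9.42 CPM untreated. In siCEBPA cells IGFBP3 had 6.33 and 6.73 CPM with progestin, against 1.83 and 2.26 CPM untreated. In siControl cells IGFBP3 had 2.92 and 3.90 CPM with progestin, against 2.01 and 2.13 CPM untreated. Progestin libraries lay above untreated ones in every setting, and all 4 ICRF libraries lay above all 8 siRNA libraries. The untreated siCEBPA and siControl groups overlapped, and no other neighbours in the order of means did. IGFBP3 rose with progestin by 0.55 ± 0.08 with ICRF (adjusted p 1.59e-07), by 1.67 ± 0.15 in siCEBPA cells (adjusted p 1.02e-07) and by 0.70 ± 0.15 in siControl cells (adjusted p 0.00102). Between siCEBPA and siControl cells it was higher by 0.96 ± 0.14 with progestin (adjusted p 5.52e-05). Untreated, the difference was -0.02 ± 0.16, with an interval of -0.36 to 0.33 (adjusted p 0.946), and its sign changed under several alternatives.

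IGFBP6 rested on 43 to 142 read pairs per library. In ICRF cells IGFBP6 had 1.32 and 1.16 CPM with progestin and 1.18 and 0.889 CPM untreated, and the groups overlapped. In siCEBPA cells IGFBP6 had 1.63 and 1.66 CPM with progestin, against 0.658 and 0.680 CPM untreated. In siControl cells IGFBP6 had 1.25 and 1.30 CPM with progestin, against 0.646 and 0.638 CPM untreated. The siRNA groups stood apart by hormone. In the order of means, siControl progestin also overlapped with ICRF progestin, and siCEBPA progestin was the highest. IGFBP6 rose with progestin by 1.29 ± 0.20 in siCEBPA cells (adjusted p 4.14e-05) and by 0.97 ± 0.20 in siControl cells (adjusted p 0.000479). With ICRF the difference was 0.24 ± 0.21, with an interval of -0.18 to 0.67 (adjusted p 0.333). Set against siControl, siCEBPA cells differed by 0.39 ± 0.18 with progestin (interval -0.01 to 0.78, adjusted p 0.104) and by 0.07 ± 0.21 untreated (interval -0.38 to 0.53, adjusted p 0.81), and neither passed the threshold.

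IGF1R, the receptor through which both IGFs signal, had opposite hormone differences between the settings. In ICRF cells IGF1R had 55.4 and 51.7 CPM with progestin, against 80.3 and 78.8 CPM untreated. In siCEBPA cells IGF1R had 167 and 182 CPM with progestin, against 78.0 and 77.2 CPM untreated. In siControl cells IGF1R had 164 and 175 CPM with progestin, against 108 and 115 CPM untreated. Progestin libraries were the lower ones in ICRF cells and the higher ones in both siRNA settings, with no overlap in any. The highest means were those of siCEBPA progestin, 175 CPM, and siControl progestin, 169 CPM, whose libraries overlapped. IGF1R fell by 0.59 ± 0.04 with ICRF (adjusted p 6.33e-16), and rose by 1.16 ± 0.05 in siCEBPA cells (adjusted p 9.37e-12) and by 0.59 ± 0.05 in siControl cells (adjusted p 3.61e-08). Untreated, it was lower in siCEBPA than in siControl cells with a log2 change of -0.51 ± 0.05 (adjusted p 5.60e-07). With progestin that difference was 0.06 ± 0.05, with an interval of -0.04 to 0.17 (adjusted p 0.322). With no scaling factors it was 0.15 and passed the threshold (adjusted p 0.0219, and between 0.0219 and 0.998 over 11 alternatives).

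The ICRF progestin libraries also had less of the luminal markers, whose summed level was 5425 and 5691 CPM, against 11490.0 and 11499 CPM in ICRF untreated cells. ESR1, the estrogen receptor gene, averaged 27.1 CPM with progestin and 169.7 CPM untreated in ICRF cells, and KRT19 averaged 806 and 2171 CPM. Each of the 11 markers was called lower with progestin there. In siCEBPA cells the marker sum was 7787 to 8056 CPM with progestin and 8536 to 8545 CPM untreated, and 8 markers were called lower with progestin and 1 higher. In siControl cells the sum was 9976 to 10639.5 CPM with progestin and 10183 to 10553 CPM untreated, where 7 markers were called lower and 1 higher. Most luminal markers, PGR among them, thus fell with progestin in all 3 settings. Of all genes tested, 30.0% were called lower with ICRF, 28.4% in siCEBPA cells and 29.3% in siControl cells. The siControl sum held a higher KRT19, at 4256 CPM with progestin and 2305 CPM untreated. FOXA1, a forkhead factor of luminal cells, averaged 74.8 CPM with progestin and 293 CPM untreated in ICRF cells, and 73.1 and 441 CPM in siControl cells. The siCEBPA sums lay below the siControl sums at both hormone states, but single markers went both ways with progestin. There 4 of the 11 were called higher in siCEBPA than in siControl cells and 5 lower, where 22.5% and 22.1% of all genes were. Untreated, 0 were called higher and 6 lower, where 22.6% and 24.0% of all genes were. The markers of other cells summed to between 29.0 and 32.9 CPM in all 4 ICRF libraries, and to between 58.1 and 74.0 CPM in the siRNA libraries. Most of this was COL1A1, with group means of 27.4 and 28.4 CPM in ICRF cells and 55.4 to 67.0 CPM in the siRNA groups. The part of these markers in the hormone and siCEBPA results was not tested.

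INSR, the insulin receptor gene, passed the test for a hormone difference in ICRF cells and in neither siRNA setting. It was low throughout, at 336 to 1173 read pairs per library. In ICRF cells INSR had 9.39 and 9.37 CPM with progestin, against 5.10 and 6.22 CPM untreated. In siCEBPA cells INSR had 5.98 and 5.37 CPM with progestin and 5.76 and 5.97 CPM untreated. In siControl cells INSR had 7.52 and 8.39 CPM with progestin and 7.80 and 7.79 CPM untreated. The groups stood apart in ICRF cells and overlapped in both siRNA settings. ICRF untreated and both siCEBPA groups overlapped at the low end of the order of means, and ICRF progestin stood apart at the top. INSR rose with progestin by 0.71 ± 0.09 with ICRF (adjusted p 1.20e-08). The difference was -0.05 ± 0.10 in siCEBPA cells (interval -0.27 to 0.17, adjusted p 0.685) and 0.02 ± 0.10 in siControl cells (interval -0.19 to 0.22, adjusted p 0.901). INSR was lower in siCEBPA than in siControl cells, with log2 changes of -0.47 ± 0.10 with progestin (adjusted p 0.00136) and -0.40 ± 0.10 untreated (adjusted p 0.00334).

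IGF2R, which clears IGF-II, differed by 1.87-fold between its highest and lowest group means. It had 284 and 279 CPM with progestin, against 249 and 246 CPM untreated, in ICRF cells. It had 464 and 461 CPM with progestin, against 422 and 425 CPM untreated, in siCEBPA cells. It had 436 and 435 CPM with progestin, against 352 and 357 CPM untreated, in siControl cells. Progestin libraries were higher in every setting, and all ICRF libraries were below all siRNA libraries. No neighbours in the order of its 6 means overlapped. IGF2R rose with progestin by 0.17 ± 0.03 with ICRF (adjusted p 1.72e-05), by 0.12 ± 0.04 in siCEBPA cells (adjusted p 0.0091) and by 0.28 ± 0.04 in siControl cells (adjusted p 4.32e-06). The siCEBPA value turned to -0.01 with upper quartile scaling and -0.05 with no scaling factors (adjusted p 0.817 and 0.267, and between 0.00196 and 0.817 over 11 alternatives), settings in which the median of all genes also moved down. Against siControl, siCEBPA cells had more IGF2R untreated, by 0.27 ± 0.04 (adjusted p 1.77e-05), and with progestin, by 0.10 ± 0.04 (adjusted p 0.0302). The call with progestin was lost in 7 of 11 alternatives, and adjusted p ran from 0.000363 to 0.181. Among them were the fits without siControl progestin replicate 1 (0.09, adjusted p 0.181), without siControl progestin replicate 2 (0.10, adjusted p 0.147), without siCEBPA progestin replicate 1 (0.09, adjusted p 0.141) and without siCEBPA progestin replicate 2 (0.11, adjusted p 0.0593).

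IRS1 and IRS2 are docking proteins that link both receptors to PI3K, and their messengers moved apart with progestin. In ICRF cells IRS1 had 12.7 and 12.3 CPM with progestin, against 42.3 and 44.7 CPM untreated. In siCEBPA cells IRS1 had 36.6 and 35.6 CPM with progestin, against 42.4 and 45.0 CPM untreated. In siControl cells IRS1 had 18.8 and 19.3 CPM with progestin, against 31.6 and 32.8 CPM untreated. Progestin libraries were lower in each setting with no overlap, and ICRF progestin libraries were the lowest of the 12. ICRF untreated and siCEBPA untreated overlapped at the top of the order of means, and no other neighbours did. IRS1 fell with progestin by 1.82 ± 0.06 with ICRF (adjusted p 1.04e-28), by 0.28 ± 0.06 in siCEBPA cells (adjusted p 0.000578) and by 0.77 ± 0.06 in siControl cells (adjusted p 1.50e-08). It was higher in siCEBPA than in siControl cells by 0.94 ± 0.06 with progestin (adjusted p 7.35e-09) and by 0.45 ± 0.06 untreated (adjusted p 1.07e-05).

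In ICRF cells IRS2 had 13.3 and 13.7 CPM with progestin, against 5.91 and 5.69 CPM untreated. In siCEBPA cells IRS2 had 4.29 and 3.93 CPM with progestin, against 2.37 and 2.55 CPM untreated. In siControl cells IRS2 had 5.80 and 5.90 CPM with progestin, against 4.48 and 4.86 CPM untreated. Progestin libraries were higher in each setting with no overlap, and siCEBPA libraries were below the others at each hormone state. ICRF untreated and siControl progestin overlapped in the order of means, and no other neighbours did. IRS2 rose with progestin by 1.20 ± 0.08 with ICRF (adjusted p 5.81e-17), by 0.74 ± 0.12 in siCEBPA cells (adjusted p 9.39e-05) and by 0.31 ± 0.11 in siControl cells (adjusted p 0.0246). The siControl call was lost in 6 of 11 alternatives, with values of 0.15 to 0.37 and adjusted p of 0.00806 to 0.238. Among them were the fits without siControl progestin replicate 1 (adjusted p 0.0726), without siControl progestin replicate 2 (adjusted p 0.103) and without siControl untreated replicate 1 (adjusted p 0.116). IRS2 was lower in siCEBPA than in siControl cells, with log2 changes of -0.49 ± 0.11 with progestin (adjusted p 0.0023) and -0.92 ± 0.12 untreated (adjusted p 1.09e-05). IRS2 shares exon positions with an antisense gene that had a mean of 0.333 counts per library.

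Ratios of 2 genes per kilobase, chosen after the values were seen, put these pairs side by side. IRS2 over IRS1 averaged 1.32 ± 0.0589 with progestin and 0.163 ± 0.0108 untreated in ICRF cells. It averaged 0.139 ± 0.00608 with progestin and 0.0688 ± 0.00063 untreated in siCEBPA cells, and 0.376 ± 0.00273 with progestin and 0.177 ± 0.00514 untreated in siControl cells (SD, n = 2 each). IRS1 was thus the more abundant adaptor messenger per length in 5 groups and IRS2 in ICRF progestin cells. IGF1R over INSR averaged 4.42 ± 0.207 with progestin and 11.0 ± 1.68 untreated in ICRF cells, 24.0 ± 3.28 and 10.2 ± 0.322 in siCEBPA cells, and 16.5 ± 0.541 and 11.1 ± 0.433 in siControl cells. IGF1R exceeded INSR per length in all 12 libraries.

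In siCEBPA cells there was more IGFBP2, IGFBP4, IGFBP5 and IRS1 and less INSR and IRS2 messenger than in siControl cells at both hormone states. The luminal marker sum was also lower there, although with progestin 4 of the 11 markers were called higher and 5 lower. With progestin, 6 members were higher in siCEBPA than in siControl cells and 2 lower, where 44.6% of genes were called, 22.5% higher and 22.1% lower. Untreated, 5 were higher and 3 lower, where 46.6% of genes were called, 22.6% higher and 24.0% lower. The members' median log2 change was 0.47 with progestin and 0.17 untreated, against 0.02 and 0.01 over all genes. Of the 5 binding proteins 4 were higher with progestin and 3 untreated, and none was called lower. The split of all calls depended on scaling: 50.5% of calls were higher with progestin and 48.5% untreated, and with no scaling factors 64.9% and 65.3%.

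**Figure D4:**
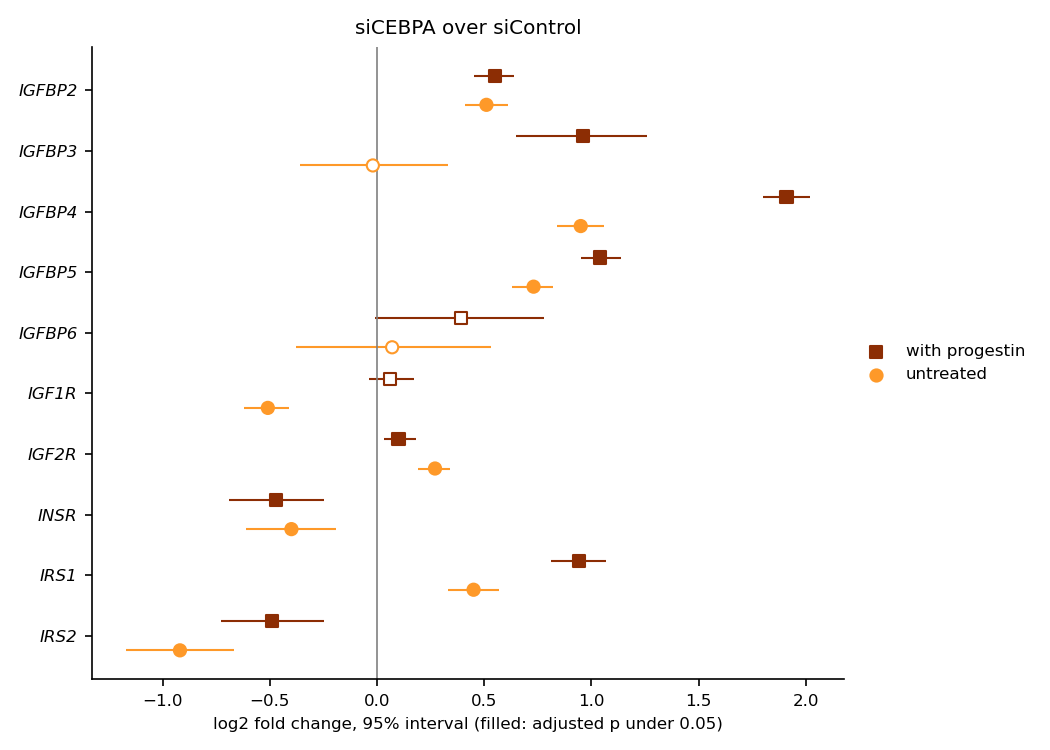
Log2 fold change of siCEBPA over siControl for each gene, with its 95% interval, with progestin and untreated. Filled symbols passed an adjusted p of 0.05. IGFBP4 lies farthest to the right, at 1.91 with progestin and 0.95 untreated.

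Whether the hormone response itself differed was tested as a difference of log2 changes. Between siCEBPA and siControl cells 5 members had a higher value and none a lower one, where 7.24% of genes were called, 4.19% higher and 3.06% lower. These were IGFBP4 at 0.96 ± 0.07 (adjusted p 1.59e-06), IGFBP3 at 0.97 ± 0.22 (adjusted p 0.0108), IGF1R at 0.58 ± 0.07 (adjusted p 0.000103), IRS1 at 0.49 ± 0.08 (adjusted p 0.0017) and IGFBP5 at 0.32 ± 0.06 (adjusted p 0.0052). For IGFBP4, IGFBP5 and IRS1 the positive value means a smaller fall with progestin in siCEBPA than in siControl cells, and for IGFBP3 and IGF1R a larger rise. Leaving out siControl progestin replicate 1 ended the IGFBP3 call (0.77, adjusted p 0.0788), as did the fit without siCEBPA untreated replicate 1 (0.83, adjusted p 0.0576). Its adjusted p ran from 9.34e-05 to 0.0788 over 15 alternatives. IGF2R at -0.16 ± 0.05 (interval -0.27 to -0.06, adjusted p 0.0659) and IRS2 at 0.43 ± 0.17 (interval 0.08 to 0.78, adjusted p 0.149) were not called. IGF2R passed the threshold in 5 of 15 alternatives, with adjusted p from 0.0164 to 0.198. IGFBP2 at 0.04 (interval -0.10 to 0.17), IGFBP6 at 0.31 (interval -0.29 to 0.92) and INSR at -0.07 (interval -0.37 to 0.23) were not called either. The members' median was 0.37, against 0.02 over all genes. Of the 11 luminal markers 4 also had a higher value and 0 a lower one. Their part in these differences was not tested. The count of all genes called was 692 without siControl progestin replicate 1 and 779 without replicate 2, against 1329.

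Between ICRF and siControl cells 3 members had a higher and 4 a lower hormone response, where 48.9% of 19003 genes were called, 24.9% higher and 24.0% lower. Of all calls 50.9% were higher, against 65.2% with no scaling factors, where the median of all genes was 0.17. IGFBP4 at 1.06 ± 0.08 (adjusted p 3.99e-09), IRS2 at 0.90 ± 0.13 (adjusted p 5.89e-06) and INSR at 0.70 ± 0.14 (adjusted p 0.000271) had higher values. IGF1R at -1.17 ± 0.07 (adjusted p 1.46e-11), IRS1 at -1.04 ± 0.08 (adjusted p 1.31e-09), IGFBP6 at -0.73 ± 0.28 (adjusted p 0.038) and IGFBP2 at -0.30 ± 0.07 (adjusted p 0.000826) had lower values. So the fall of IRS1 was larger with ICRF and the fall of IGFBP4 smaller. The IGFBP6 call was lost in 10 of 14 alternatives, with values from -0.92 to -0.51 and adjusted p from 0.0152 to 0.194. It was lost without each of siControl progestin replicates 1 and 2, siControl untreated replicates 1 and 2, ICRF progestin replicate 2 and ICRF untreated replicate 1, where it had its smallest size (-0.51, adjusted p 0.194). IGFBP2 was -0.14 and lost its call with no scaling factors (adjusted p 0.0705, and between 5.72e-05 and 0.0705 over 14 alternatives). IGFBP5 at 0.09 (interval -0.03 to 0.21), IGFBP3 at -0.14 (interval -0.51 to 0.23) and IGF2R at -0.11 (interval -0.21 to -0.01, adjusted p 0.0542) were not called. IGF2R passed in 5 of 14 alternatives, with adjusted p from 0.0148 to 0.455, among them without ICRF progestin replicate 1 (-0.16, adjusted p 0.0203) and without replicate 2 (-0.14, adjusted p 0.045), and with no scaling factors it turned to 0.04. With no scaling factors IGFBP5 was 0.24 and passed (adjusted p 0.001, and between 0.001 and 0.758 over 14 alternatives). The members' median was -0.13, against 0.02 over all genes. Of the 11 luminal markers 9 had a lower value and 1 a higher one, and their part in these differences was not tested. This comparison and the siCEBPA one use the same siControl libraries.

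**Figure D5:**
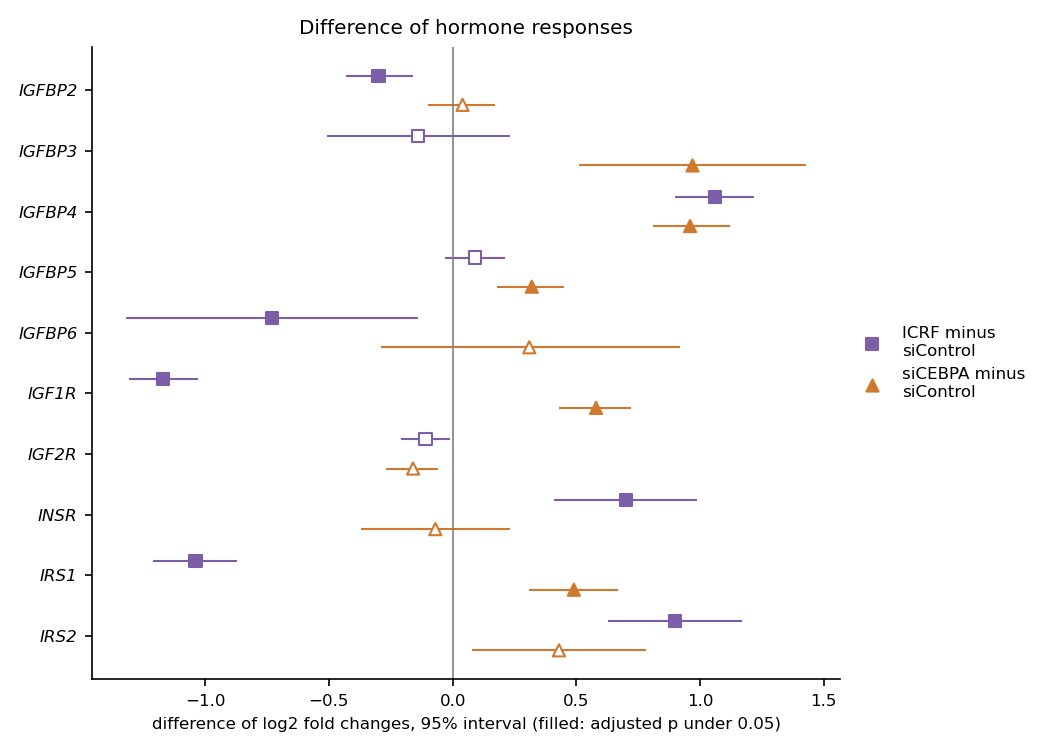
Difference of hormone responses for each gene, ICRF minus siControl and siCEBPA minus siControl, on the log2 scale with 95% intervals. Filled symbols passed an adjusted p of 0.05. IGF1R lies at -1.17 for ICRF and 0.58 for siCEBPA.

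The rest of the pathway was followed through 68 listed genes, of which 58 to 60 were tested in each comparison. INS, IGFALS, PAPPA, PAPPA2, IRS4, INSRR, CAV1 and PIK3R2 passed no filter. Few reads were counted for the ligands, with IGF1 at most at a mean of 0.387 CPM and IGF2 at 0.938 CPM. Overlap with other genes was looked at only for the members, CEBPA and PGR. A low count of a pathway gene therefore need not mean an absent messenger. IGF1 had 6 and 6 read pairs with progestin and 0 and 2 untreated in siControl cells, and rose with progestin in all 3 settings, a fold that rests on few reads. Of the other binding proteins IGFBP1 had 15 and 3 read pairs with progestin and 1 and 1 untreated in siControl cells, and IGFBP7 was highest in ICRF cells, at a mean of 1.81 CPM with progestin and 1.72 CPM untreated.

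With progestin in siControl cells 32 of 58 pathway genes were called higher and 15 lower, with a median log2 change of 0.23, where 29.2% of all genes were called higher and 29.3% lower. Within these, the AKT, FOXO and GSK3 list had 8 of 10 higher and 1 lower, and the adaptors and regulators 9 of 15 higher and 3 lower. The list of PI3K and its phosphatases had 5 of 10 higher and 5 lower, and the mTOR list 6 of 12 higher and 3 lower. FOXO4, a forkhead factor restrained by AKT, had 29.5 and 28.9 CPM with progestin, against 3.55 and 3.29 CPM untreated (log2 3.09 ± 0.08, adjusted p 1.28e-14). INPP5D, a phosphatase of PI3K products, rose by 2.81 ± 0.28 (adjusted p 2.89e-07) and SOCS1, an inhibitor of cytokine signalling, by 2.40 ± 0.33 (adjusted p 1.62e-05), and both were under 1 CPM untreated. STC1 and STC2, which inhibit some of the proteases that cut IGFBPs, fell by 3.28 ± 0.08 (adjusted p 6.26e-15) and 1.61 ± 0.05 (adjusted p 2.18e-13). STC2 had 391 and 396 CPM with progestin, against 1139 and 1246 CPM untreated. INPP4B, another phosphatase that opposes PI3K, fell by 1.33 ± 0.05 (adjusted p 3.13e-12).

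In siCEBPA cells 32 pathway genes were called higher with progestin and 17 lower, with a median of 0.23, where 29.9% of all genes were called higher and 28.4% lower. INPP5D (3.21 ± 0.28, adjusted p 6.23e-08), FOXO4 (2.84 ± 0.08, adjusted p 2.57e-14) and PIK3CD, a catalytic subunit of PI3K (2.05 ± 0.16, adjusted p 1.85e-08), rose most by the naming rule. STC1, STC2 and SOCS3, an inhibitor of cytokine and insulin signalling, fell by 2.96 ± 0.07 (adjusted p 1.12e-14), 1.79 ± 0.05 (adjusted p 7.64e-14) and 1.26 ± 0.10 (adjusted p 3.34e-08). With ICRF 26 of 60 were called higher and 18 lower, with a median of 0.08, where 31.3% of all genes were called higher and 30.0% lower. FOXO4 (2.22 ± 0.09, adjusted p 5.09e-26), FOXO1 (1.22 ± 0.09, adjusted p 8.40e-17) and PIK3CD (1.08 ± 0.15, adjusted p 4.08e-08) rose. STC2 fell to 102 and 99.2 CPM with progestin, against 619 and 625 CPM untreated (log2 -2.64 ± 0.04, adjusted p 4.49e-43). INPP4B and IGF2BP2, an RNA-binding protein named for the IGF2 messenger, fell by 2.18 ± 0.05 (adjusted p 1.99e-33) and 1.12 ± 0.05 (adjusted p 8.72e-23).

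Between siCEBPA and siControl cells with progestin 16 of 58 pathway genes were higher and 17 lower, where 22.5% of all genes were called higher and 22.1% lower. Untreated, 10 were higher and 22 lower, where 22.6% of all genes were called higher and 24.0% lower. That count of 10 was 16 with no scaling factors and 6 without siCEBPA untreated replicate 2. In the mTOR list 7 of 12 were lower untreated and 1 higher, and among the adaptors and regulators 8 of 15 were lower and 2 higher. The AKT, FOXO and GSK3 list had 3 of 10 each way untreated, and the list of PI3K and its phosphatases 1 of 10 each way. GRB10, an adaptor that inhibits both receptors, had 212 and 209.7 CPM in siCEBPA cells, against 84.3 and 81.9 CPM in siControl cells with progestin (log2 1.36 ± 0.05, adjusted p 1.76e-11). It was also higher untreated (0.74 ± 0.05, adjusted p 7.69e-09). IGF2BP3 was higher by 0.96 ± 0.18 with progestin (adjusted p 0.00036) and by 1.39 ± 0.16 untreated (adjusted p 4.34e-06). IGFBPL1, a relative of the binding proteins, was higher by 0.82 ± 0.15 with progestin (adjusted p 0.000325), and FOXO4 by 0.76 ± 0.08 untreated (adjusted p 2.47e-06). SOCS3 was lower in siCEBPA cells, at -1.77 ± 0.10 with progestin (adjusted p 2.15e-09) and -1.25 ± 0.09 untreated (adjusted p 1.38e-08). EIF4EBP1, a repressor of translation under mTOR, was lower at -1.26 ± 0.07 with progestin (adjusted p 2.03e-09) and -1.16 ± 0.07 untreated (adjusted p 3.40e-09). ENPP1, which inhibits the insulin receptor, was lower untreated at -0.92 ± 0.07 (adjusted p 2.78e-08). SOCS1 was lower with progestin at -1.01 ± 0.31 (adjusted p 0.0152), a call lost without siControl progestin replicate 1 (-1.05, adjusted p 0.0677), siControl progestin replicate 2 (-0.98, adjusted p 0.0735) and siCEBPA progestin replicate 1 (-0.55, adjusted p 0.157).

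The hormone response differed between siCEBPA and siControl cells for 7 pathway genes with a higher value and 3 with a lower one, of 58, where 4.19% of all genes had a higher value and 3.06% a lower one. ENPP1 (0.68 ± 0.10, adjusted p 0.000355), GRB10 (0.62 ± 0.07, adjusted p 4.47e-05) and INPP4B (0.57 ± 0.07, adjusted p 0.000169) had higher values. GSK3B, a kinase inhibited by AKT (-0.41 ± 0.06, adjusted p 0.000379), and PDPK1, the kinase that activates AKT (-0.36 ± 0.06, adjusted p 0.00112), had lower values. SOCS3 at -0.51 ± 0.14 (adjusted p 0.03) lost its call without any one of siControl progestin replicates 1 and 2, siControl untreated replicate 1, siCEBPA progestin replicate 1 and siCEBPA untreated replicates 1 and 2, with values from -0.52 to -0.44. Between ICRF and siControl cells 14 of 59 pathway genes had a higher value and 27 a lower one, with a median of -0.20, where 24.9% of all genes had a higher value and 24.0% a lower one. In the AKT, FOXO and GSK3 list 7 of 10 had a lower value and 1 a higher one. Among PI3K and its phosphatases 5 of 10 had a lower value and 4 a higher one, and in the mTOR list 4 of 12 each way. STC1 had 10.6 and 11.1 CPM with progestin, against 21.2 and 20.9 CPM untreated, in ICRF cells. It had 4.99 and 4.91 CPM with progestin, against 47.9 and 47.8 CPM untreated, in siControl cells. Its responses differed by 2.31 ± 0.10 (adjusted p 9.95e-14). GRB14, an adaptor that inhibits the insulin receptor (1.16 ± 0.18, adjusted p 1.43e-05), and TSC1, an inhibitor of mTOR (0.83 ± 0.06, adjusted p 9.98e-11), had higher values. PHLPP1, a phosphatase of AKT, had a lower value (-1.27 ± 0.10, adjusted p 1.33e-09). INPP5D (-1.44 ± 0.42, adjusted p 0.00723) lost its call without ICRF untreated replicate 2 (-1.19, adjusted p 0.062). SOCS1 (-1.34 ± 0.51, adjusted p 0.0451) lost its call without any one of siControl progestin replicates 1 and 2, siControl untreated replicate 1, ICRF progestin replicates 1 and 2 and ICRF untreated replicate 1, with values from -1.51 to -0.73.

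For each member whose group means differed by at least 2-fold, the genes most like it over the 6 group means were sought among 11399 genes over 5 CPM in some group. The measure was the root mean square difference of centred log2 means, and smaller is more alike. IGFBP5 was most like GPC1-AS1 (0.13) and RAB26 (0.16), and IGFBP4 like KLHDC7A and SEMA3A (0.21 each). IGF1R was most like SLC22A23 (0.09) and SVIL (0.10), and IGFBP6 like LETM2 (0.07) and NEURL1B (0.09). IRS1 was most like TRPS1 (0.15) and LPAR1 (0.20), and IRS2 like ERO1B (0.19) and CNEP1R1 (0.23). IGFBP3 was most like AK7 (0.26) and LDHAP4 (0.32), a pseudogene whose reads may come from its parent. IGFBP2, IGF2R and INSR differed by less than 2-fold between any 2 groups and were not matched.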

How the data were processed

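RNA-seq libraries were made with a stranded TruSeq mRNA kit, per the labels' protocols. The authors deposited unnormalized counts of read pairs for every gene, from featureCounts 1.5.1 (paired, reverse strand, GENCODE 24 genes) from STAR alignments in a folder named hg38_mmtv, per the file headers. Trimmomatic and STAR are named in the submitters' processing notes, with no version. Per those headers, featureCounts ran with no multi-mapping option, which leaves genes that have near-identical copies uncertain. The deposited gene lengths, other than counts, were used for CPM per kb. IDs were matched to symbols for 93.4% of genes, which held at least 99.75% of each library's counts.

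Groups came from titles. Counts were fitted with edgeR 4.0.16 (limma 3.58.1, R 4.3.3), with filterByExpr, TMM factors, glmQLFit (robust) and glmQLFTest, in 1 model of the 8 siRNA libraries, 1 of the 4 ICRF libraries and 1 of all 12 for ICRF minus siControl. CPM used the TMM factors of all 12 libraries. SE was the log2 change divided by the square root of F, and intervals are 95%. Genes named beyond the members, CEBPA and PGR were the 3 called higher and 3 called lower with the largest changes in each comparison among pathway genes over 1 CPM in a compared group. COL1A1, LUM, HBB, ESR1, FOXA1 and KRT19, and the reads of IGF1, IGF2, IGFBP1 and IGFBP7, were chosen after their values were seen. So were the single pathway lists whose counts are given. The members and lists were chosen with earlier results of these data known. Scripts were tested on simulated data. Alternatives covered scaling, the filter, DESeq2 1.42.0, single libraries left out, the replicate block and 1 fit of 12 libraries. IGFBP6, with 43 to 142 read pairs per library, had the fewest of the members. Protein sequences were not used here. Figures used matplotlib 3.10.9.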

Additional observations from a re-analysis of the deposited data

Results flagged for a closer look

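Hormone responses that differed between settings by a test of the difference itself are listed here with their values, as differences of log2 changes from edgeR's quasi-likelihood test. Between siCEBPA and siControl cells the differences were 0.97 for IGFBP3, 0.96 for IGFBP4, 0.32 for IGFBP5, 0.58 for IGF1R and 0.49 for IRS1. Between ICRF and siControl cells they were 1.06 for IGFBP4, 0.90 for IRS2 and 0.70 for INSR, and -1.17 for IGF1R, -1.04 for IRS1, -0.73 for IGFBP6 and -0.30 for IGFBP2. The IGFBP6 call was lost in 10 of 14 alternatives (adjusted p up to 0.194) and the siCEBPA minus siControl call of IGFBP3 in 2 of 15 (up to 0.0788, with 1 library left out). The IGFBP2 call was lost in 1 of 14 (0.0705, with no scaling factors). Both sets of differences subtract the response of the same siControl libraries. The ICRF titles name no siRNA, arrest or time, so any difference in these from siControl cells cannot be told apart from ICRF. With 2 libraries a group, no library could be tested for standing apart from its group.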

How the results depend on the processing

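Of 480 member values under 7 other settings, 449 kept their direction and their side of the threshold, and of 360 values with 1 library left out 333 did. Members called in siCEBPA minus siControl numbered 5, and 4 to 5 with a library left out. No label says what the replicate numbers share. Deviations of replicate 1 correlated at 0.42 to 0.54 among siCEBPA progestin, siCEBPA untreated and siControl untreated, at -0.04 to 0.07 between these and siControl progestin, at -0.41 to -0.13 between these and ICRF progestin, and at 0.06 between the ICRF groups. Variation was thus shared by number among 3 groups and not among all, and the numbers were not used as pairs. With the replicate block, siCEBPA minus siControl gave 2271 genes called (1329 without it), 12 pathway genes higher and 5 lower, and IGF2R was called there (-0.16, adjusted p 0.0164) and in ICRF minus siControl (-0.11, adjusted p 0.0335). With no filter beyond a count above 0, pathway genes higher in siCEBPA minus siControl numbered 11. With no scaling factors, 16 pathway genes were higher in siCEBPA than in siControl untreated cells.

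Leaving out 1 library each, genes called in siCEBPA minus siControl ran from 692 to 1381, and pathway genes higher in siCEBPA untreated cells from 6 to 8. Values that changed sign were INSR with progestin in siControl cells (-0.09 with upper quartile scaling, -0.14 with no scaling factors, and -0.06 to 0.11 with 1 library left out, lowest without siControl progestin replicate 2) and in siCEBPA cells (0.03 without siCEBPA progestin replicate 2), and its siCEBPA minus siControl difference (-0.15 to 0.01, at 0.01 without siControl progestin replicate 2 or siCEBPA progestin replicate 2). IGF2R in siCEBPA cells was -0.01 with upper quartile scaling and -0.05 with no scaling factors. IGFBP3 in siCEBPA against siControl untreated cells was 0.03 with upper quartile scaling, 0.08 with no scaling factors, and -0.18 to 0.12 with 1 library left out, at 0.03 without siControl untreated replicate 2 and 0.12 without siCEBPA untreated replicate 1. In ICRF minus siControl, IGFBP3 was 0.01, IGF2R 0.04 and PGR 0.06 with no scaling factors, and IGFBP3 was -0.34 to 0.08 with 1 library left out, at 0.08 without siControl progestin replicate 2. IGFBP2 was 0.03 with ICRF without ICRF progestin replicate 2, and -0.01 to 0.09 in siCEBPA minus siControl, at -0.01 without siCEBPA untreated replicate 2. None of these was called as reported except IGF2R in siCEBPA cells, and the cause was not tested. DESeq2 lost the calls of IRS2 in siControl cells (adjusted p 0.0528), IGF2R with the siRNA and progestin (0.0565) and IGFBP6 in ICRF minus siControl (0.0845). DESeq2 also called IGF2R in siCEBPA minus siControl (-0.17, adjusted p 0.0407) and in ICRF minus siControl (-0.14, adjusted p 0.0148). IGFBP6 rested on 43 to 142 read pairs per library.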
